A study of Mus musculus with 14 samples.

Results

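Replication licensing and DNA synthesis were followed through 48 genes, chosen by symbol and sorted by role into origin licensing (15 genes), helicase activation (8), polymerases and clamp loaders (20) and nucleotide supply (5). Of these, 47 were measured among the 18194 genes of the array table, and Chaf1a was not analysed here because no probe set of the table carries it as its single symbol. A gene's value is the log2 expression of its brightest probe set, that is, of the group of probes with the highest mean over all 14 arrays. The arrays measured bone marrow cells that lacked lineage markers and carried Sca1 and Kit (LSK cells), the compartment of blood stem cells and multipotent progenitors. The mice were hCD34 x H2BGFP double transgenic on a C57BL/6 background. In them a human CD34 promoter drives the tTA transactivator, which switches on a histone H2B fused to GFP until doxycycline is given. Doxycycline, begun when the mice were 6 to 8 weeks old, was kept at 1 mg/ml in their drinking water for 12 weeks in every group. During those weeks each division dilutes the GFP, per the labels, so the sorted levels GFP0 to GFP4 rank cells from the most to the least diluted label. There were 2 arrays of GFP0, 3 of GFP1, 3 of GFP2, 2 of GFP3 and 4 of GFP4. The labels call the replicates of a level biological but name no animals or pools, so a p-value speaks only of how these samples vary, which may be technical.

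Before S phase, the origin recognition complex marks replication origins, and CDC6 and CDT1 load the MCM ring there as an inactive helicase, a step called licensing. Kinases, CDC45, MCM10 and the GINS complex then turn the ring into a moving helicase. DNA polymerases, the sliding clamp PCNA and its loader RFC copy the strands, while ribonucleotide reductase, thymidine kinase and related enzymes supply the deoxynucleotides. Many of these genes are transcribed under E2F factors as cells enter the cycle, and most stem cells of adult bone marrow are out of cycle at any time.

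Of the replication genes measured, 34.0% fell as GFP retention increased, with members in each of the 4 roles. By the slope over the 5 levels, 16 of the 47 genes were lower with increasing GFP and 0 were higher at an adjusted p under 0.05 (limma, Benjamini-Hochberg adjustment over all 18194 genes). Of all genes, 1.07% were lower and 2.28% higher by this test. At an unadjusted p under 0.05, 31 of the 47 were lower and 0 higher (7% and 9.71% of all genes). The 16 were Cdt1, Mcm5 and Orc1 in licensing, Gins1, Mcm10, Dbf4 and Gins4 in helicase activation, Dscc1, Prim1, Pola1, Prim2 and Rfc5 among polymerases and clamp loaders, and Rrm2, Dut, Tk1 and Rrm1 in nucleotide supply. Slopes were below 0 for 44 of the 47 genes, where 54.8% of all genes had a slope below 0. The median slope was -0.23 log2 units per level over the 47 genes and -0.01 over all genes. Between the ends of the series, 6 genes were lower in GFP4 than in GFP0 and 0 were higher (0.429% of all genes lower, 1.25% higher): Cdt1, Orc1, Gins1, Dscc1, Rrm2 and Dut. At an unadjusted p under 0.05, 30 were lower in GFP4 and 0 higher (5.99% and 8.72% of all genes), and 44 of the 47 differences were below 0 (54.6% of all genes). In sorted bulk cells, fewer cells in cycle and less of these transcripts per cell cannot be told apart. How many of the 47 genes passed depended on single arrays and settings. The share of all genes passing was not counted in these alternatives. Whether calls changed as much over all genes therefore cannot be told from the counts. The count of 16 became 5 without GFP0 replicate 1, 3 without GFP0 replicate 2, 9 without GFP1 replicate 1, 10 without GFP3 replicate 1, 2 without GFP3 replicate 2, 10 without GFP4 replicate 1 and 5 without GFP4 replicate 4. Centring arrays on their medians gave 6, array quality weights gave 1, and covariates for RNA integrity gave 3. All 16 slopes stayed below 0 in every one of the 26 alternatives, Cdt1 passed in all 26, and Gins1 passed in 25. The other 14 passed in between 5 of them (Gins4) and 20 (Rrm2). The count of 6 genes lower in GFP4 than in GFP0 was 3 without GFP0 replicate 1, 2 without GFP0 replicate 2, 14 without GFP4 replicate 2 and 2 without GFP4 replicate 4. Array quality weights gave 0, and cyclic loess gave 11.

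**Figure D1:**
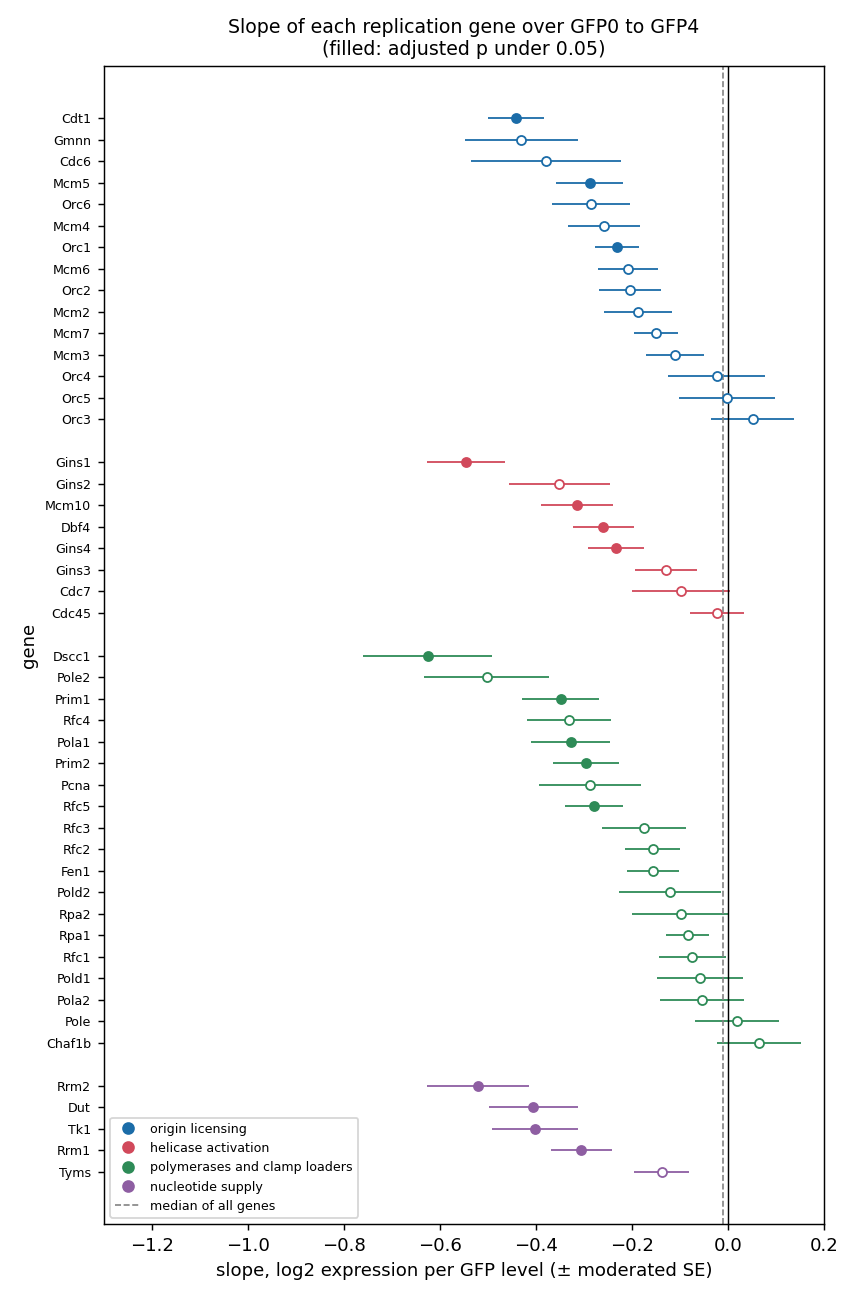
Slope of each of the 47 genes in log2 units per GFP level with its standard error, grouped by role. Colour is the role, filled circles are the 16 genes that passed the test, the solid line is a slope of 0 and the dashed line the median of all genes. All but Orc3, Pole and Chaf1b lie left of 0.

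The mean over the 47 genes was similar in GFP0, GFP1 and GFP2 and lower in GFP3 and GFP4. The mean was 10.37 ± 0.48 in GFP0 (SD, n = 2), 10.38 ± 0.23 in GFP1 (n = 3), 10.42 ± 0.15 in GFP2 (n = 3), 9.99 ± 0.18 in GFP3 (n = 2) and 9.42 ± 0.27 in GFP4 (n = 4). The 4 GFP4 arrays lay between 9.15 and 9.67, and all other arrays between 9.86 and 10.71, with no overlap. The GFP3 arrays, at 10.12 and 9.86, did overlap GFP0, where replicate 1 read 10.03. GFP0, GFP1 and GFP2 means differed by less than the SD of their arrays. For 41 of the 47 genes the lowest of the 5 level means was that of GFP4, against 16.8% of all genes. The lowest mean was that of GFP0 for Orc3, Pole and Chaf1b, of GFP2 for Cdc45 and of GFP3 for Mcm6 and Rfc4.

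**Figure D2:**
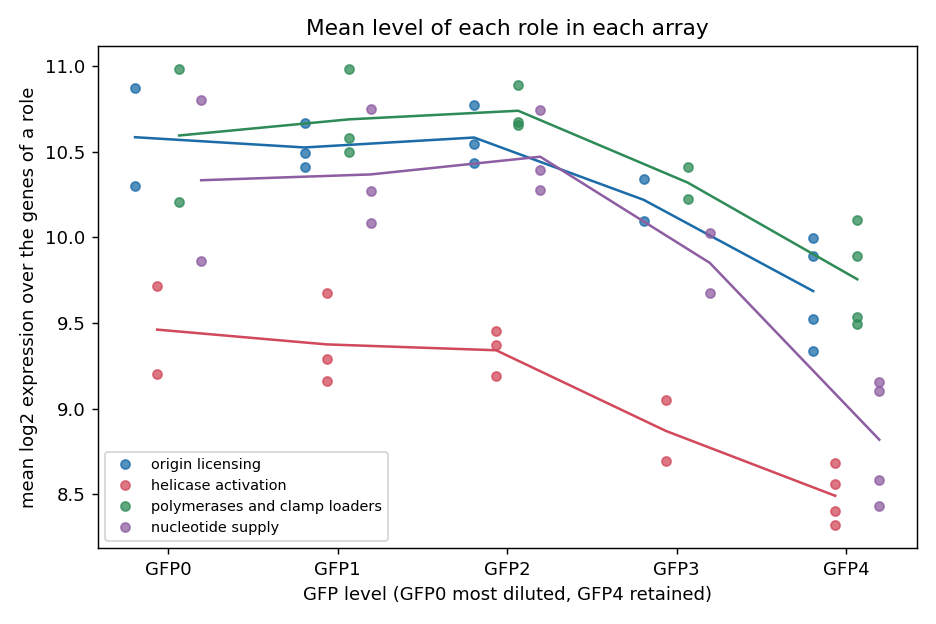
Mean log2 expression of the measured genes of each role (licensing 15, helicase activation 8, polymerases and clamp loaders 19, nucleotide supply 5) by GFP level, GFP0 to GFP4. Points are arrays and lines join level means; in each role the GFP4 mean is the lowest of the 5, and heights of different roles are not comparable because they rest on different probes.

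No gene of the table passed at a single step between neighbouring levels in limma (0 of 18194 at each of the 4 steps; 1 of the 47 genes at 1 step with array quality weights), so where the decline happened rests on unadjusted values. At an unadjusted p under 0.05, GFP4 against GFP3 gave 12 of the 47 genes lower and 0 higher, where 2.7% of all genes were lower and 1.24% higher. GFP3 against GFP2 gave 6 lower and 0 higher (0.566% and 0.791% of all genes). GFP2 against GFP1 gave 0 in either direction (1.1% and 1.6%). GFP1 against GFP0 gave 1 lower, Orc1, and 3 higher, Pola2, Pole and Chaf1b (4.9% and 5.93%). The median difference of the 47 genes was -0.56 for GFP4 minus GFP3, -0.40 for GFP3 minus GFP2, 0.01 for GFP2 minus GFP1 and -0.02 for GFP1 minus GFP0. Over all genes those medians were 0.05, 0.01, -0.02 and -0.05. Differences below 0 numbered 44 for GFP4 minus GFP3 (43.2% of all genes), 43 for GFP3 minus GFP2 (48.8%), 22 for GFP2 minus GFP1 (53.5%) and 25 for GFP1 minus GFP0 (55%). A departure from a straight line passed for 0 genes in limma, and 8 of the 47 had an unadjusted p under 0.05 for it, against 7.01% of all genes. The 8 were Cdt1, Tk1, Rfc5, Rrm1, Tyms, Pola2, Mcm3 and Chaf1b, so a slope need not mean an even change per level. Tested for any difference between levels, 5 genes passed, Cdt1, Gins1, Rfc5, Tk1 and Rrm1, against 0.698% of all genes. That count fell to 0 with the covariates for the 3 prime to 5 prime differences. With single arrays left out it ran between 1 and 6. It was 2 without GFP2 replicate 1, 1 without GFP2 replicate 2, 3 without GFP2 replicate 3 and 3 without GFP3 replicate 1. It was 1 without GFP3 replicate 2, 1 without GFP4 replicate 1, 2 without GFP4 replicate 3 and 1 without GFP4 replicate 4.

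**Figure D3:**
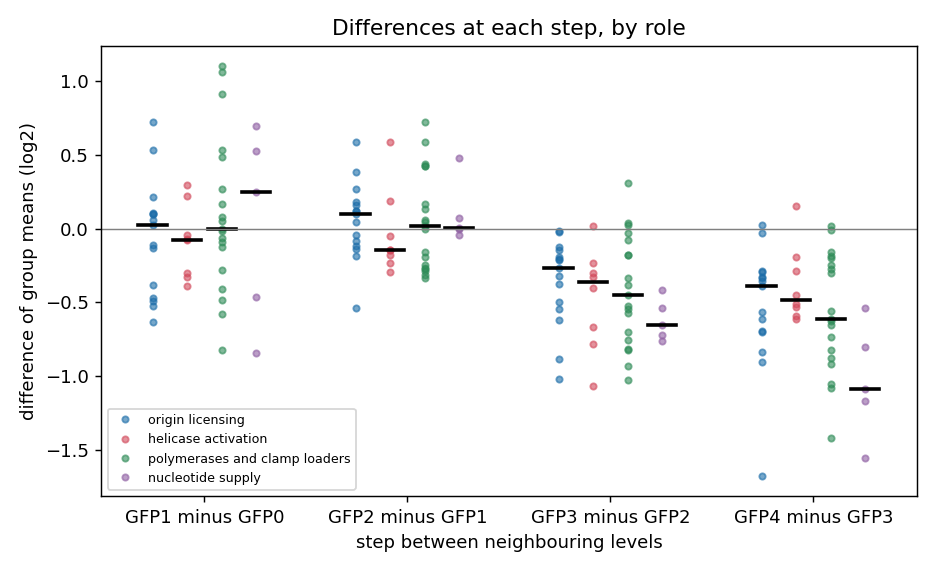
Difference in log2 expression of the 47 genes at each step between neighbouring levels, later level minus the one before. Each point is a gene, colour is the role and bars are role medians. Over all 47 genes the median was -0.02 at the first step, 0.01 at the second, -0.40 at the third and -0.56 at the fourth.

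Promoter sequences are shown for 1 called gene of each role, with the steepest slope among those in the RefSeq promoter table, and for Orc5, the licensing gene whose slope was nearest to 0. Each runs 5′ to 3′ on the gene's strand from 250 bases before to 50 bases after its annotated start (RefSeq, GRCm38.p6). Capitals mark the E2F words TTTGGCGC and TTTCGCGC and the CCAAT box read by NF-Y, on either strand. The windows are chr8:122567765-122568064 on the plus strand for Cdt1, chr2:5012742-5013041 on the minus strand for Mcm10, chr10:128014965-128015264 on the plus strand for Prim1, chr12:24708004-24708303 on the plus strand for Rrm2 and chr5:22550289-22550588 on the minus strand for Orc5.
Cdt1: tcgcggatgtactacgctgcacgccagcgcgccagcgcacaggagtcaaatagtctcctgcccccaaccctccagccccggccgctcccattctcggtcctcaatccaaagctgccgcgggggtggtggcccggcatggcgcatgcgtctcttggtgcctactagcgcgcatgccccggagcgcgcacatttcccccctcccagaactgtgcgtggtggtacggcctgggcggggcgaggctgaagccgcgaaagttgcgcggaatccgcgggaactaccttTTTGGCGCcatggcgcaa
Mcm10: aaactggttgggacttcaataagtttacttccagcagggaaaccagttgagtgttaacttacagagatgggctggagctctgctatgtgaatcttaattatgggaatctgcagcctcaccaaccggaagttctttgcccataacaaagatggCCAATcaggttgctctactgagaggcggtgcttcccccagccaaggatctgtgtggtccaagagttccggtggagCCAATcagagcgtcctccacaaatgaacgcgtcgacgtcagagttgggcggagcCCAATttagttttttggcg
Prim1: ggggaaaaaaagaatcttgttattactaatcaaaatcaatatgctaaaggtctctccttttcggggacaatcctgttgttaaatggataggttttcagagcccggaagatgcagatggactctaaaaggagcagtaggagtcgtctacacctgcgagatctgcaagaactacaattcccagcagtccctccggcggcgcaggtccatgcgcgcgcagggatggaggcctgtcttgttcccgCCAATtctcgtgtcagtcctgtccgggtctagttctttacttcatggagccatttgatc
Rrm2: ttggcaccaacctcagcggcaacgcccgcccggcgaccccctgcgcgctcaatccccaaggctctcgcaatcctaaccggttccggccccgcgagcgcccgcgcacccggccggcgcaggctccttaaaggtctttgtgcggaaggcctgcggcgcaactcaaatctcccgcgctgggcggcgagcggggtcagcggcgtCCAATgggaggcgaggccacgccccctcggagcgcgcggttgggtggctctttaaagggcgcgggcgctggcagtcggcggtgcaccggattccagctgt
Orc5: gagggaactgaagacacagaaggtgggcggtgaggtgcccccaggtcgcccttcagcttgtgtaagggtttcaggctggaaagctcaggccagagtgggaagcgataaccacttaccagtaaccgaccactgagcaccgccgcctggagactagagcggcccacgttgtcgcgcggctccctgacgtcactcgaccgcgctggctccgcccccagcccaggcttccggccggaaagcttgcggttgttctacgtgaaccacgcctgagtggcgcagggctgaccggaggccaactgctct
Cdt1 holds 1 E2F word, whose first base is at position 33 counted from 1 at the start. Mcm10 holds 3 CCAAT boxes at -98, -23 and 32, Prim1 1 at -9, and Rrm2 1 at -50. The Orc5 window holds none of these words. Orc5 read 8.21 in GFP0 replicate 1 and 9.44 in replicate 2. Its GFP4 mean of 8.76 was the lowest of its level means, so a slope near 0 does not make it an unchanged gene. Promoters of 38 of the 47 genes were in the table, in 45 entries, and those of Gmnn, Mcm4, Gins1, Gins2, Gins4, Prim2, Pole, Rfc2 and Dscc1 are not shown. An E2F word stood in 20% of these 45 and in 0.813% of the 32851 promoters of the table. CCAAT or its reverse complement ATTGG stood in 53.3% and 37.4%, and the CHR word TTTGAA or its reverse complement TTCAAA in 17.8% and 17.9%. Genes that did not pass held such words too. An E2F word stood in 33.3% of the 12 entries of genes lower by slope and in 15.2% of the 33 entries of the others. For CCAAT the shares were 58.3% and 51.5%, and for the CHR word 8.33% and 21.2%. The differences between these shares were not tested. No word of the search contains another. Matches describe letters in a window, and factor binding was not measured.

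Licensing factors showed the steepest decline at Cdt1, which brings the MCM ring to origins and is held back by geminin. In log2 units and in replicate order, Cdt1 read 10.97 and 11.44 in GFP0, 11.28, 11.09 and 10.90 in GFP1, 11.10, 11.25 and 10.67 in GFP2, 10.77 and 10.86 in GFP3, and 9.48, 8.81, 9.45 and 8.80 in GFP4. All 4 GFP4 arrays lay below the other 10, by more than 1 log2 unit. GFP4 averaged 9.13 ± 0.38 (SD, n = 4) and GFP0 11.21 ± 0.33 (SD, n = 2), a difference of -2.07 ± 0.25 (SE, adjusted p = 0.00347) and a 4.2-fold lower level in GFP4. Its slope was -0.44 ± 0.06 per level (SE, adjusted p = 0.00228), which averages over unequal steps. GFP4 minus GFP3 alone was -1.68 ± 0.25 (SE, adjusted p = 0.321). By array, Orc1 had 9.17 and 8.81 in GFP0, 8.47, 8.68 and 8.41 in GFP1, 8.37, 8.65 and 7.98 in GFP2, 8.32 and 8.33 in GFP3, and 8.08, 7.92, 7.75 and 7.99 in GFP4. Orc1 encodes the largest subunit of the origin recognition complex, and its GFP4 arrays lay below both GFP0 arrays and overlapped GFP2 alone. The difference between GFP4 and GFP0 was -1.06 ± 0.20 (SE, adjusted p = 0.0217) and the slope -0.23 ± 0.05 per level (SE, adjusted p = 0.0189). Mcm5 read 12.74 and 12.73 in GFP0, 12.52, 13.33 and 12.54 in GFP1, 12.64, 12.29 and 11.83 in GFP2, 12.26 and 11.72 in GFP3, and 11.76, 12.11, 11.74 and 11.16 in GFP4. Mcm5 encodes a subunit of the MCM ring. Its GFP4 arrays were below both GFP0 arrays but overlapped GFP2 and GFP3, and 1 GFP1 array was the highest of all. The slope of Mcm5 was -0.29 ± 0.07 per level (SE, adjusted p = 0.0437), and its GFP4 level was lower than the GFP0 level by an amount that did not pass (-1.04 ± 0.31, SE, adjusted p = 0.123).

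The remaining 12 licensing genes did not pass, and their slopes lay between -0.43 for Gmnn, which encodes geminin, and 0.05 for Orc3. Values of Orc3 were 8.53 and 10.12 in GFP0, 10.28, 9.98 and 9.87 in GFP1, 10.31, 10.15 and 10.04 in GFP2, 9.86 and 10.06 in GFP3, and 9.10, 10.23, 9.88 and 9.28 in GFP4. Orc3 encodes another subunit of the origin recognition complex. GFP0 replicate 1 was its lowest array, and the levels overlapped throughout. Orc3 had a slope of 0.05 ± 0.09 per level (SE, adjusted p = 0.819). Orc4 and Orc5 had slopes of -0.02 and -0.0029. Within the complex the slopes ran from -0.29 ± 0.08 (SE) for Orc6 to 0.05 for Orc3. Probe sets of a single gene also differed. The other Orc3 probe sets had slopes of -0.02 and -0.12, and those of Orc4 ran from -0.31 to 0.01. Differences between subunits were not tested. The genes of the MCM ring had slopes of -0.29 for Mcm5, -0.26 for Mcm4, -0.21 for Mcm6, -0.19 for Mcm2, -0.15 for Mcm7 and -0.11 for Mcm3. Orc2 had -0.20 and missed the threshold as well. Gmnn and Cdc6, which recruits the MCM ring with CDT1, were singled out after their values were seen. In GFP4 Gmnn averaged 9.64 ± 0.87 (SD, n = 4), against 11.47 ± 0.52 (SD, n = 2) in GFP0, and its slope missed the threshold (-0.43 ± 0.12 per level, SE, adjusted p = 0.0672). Cdc6 had the widest spread of the 47 genes within GFP4, 3.71 log2 units between 10.27 in replicate 2 and 6.57 in replicate 4.

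Helicase activation had 4 of 8 genes lower by slope. By array, Gins1 had 9.86 and 10.61 in GFP0, 10.63, 9.63 and 9.47 in GFP1, 9.91, 10.00 and 9.27 in GFP2, 8.98 and 8.34 in GFP3, and 8.13, 8.13, 8.50 and 7.75 in GFP4. Gins1 encodes a subunit of the GINS complex, which joins the MCM ring to CDC45 and polymerase epsilon. Its GFP4 arrays lay below every array of GFP0, GFP1 and GFP2, and GFP3 replicate 2 fell within the GFP4 range. GFP4 averaged 8.13 ± 0.31 (SD, n = 4) and GFP0 10.23 ± 0.53 (SD, n = 2), a difference of -2.11 ± 0.36 (SE, adjusted p = 0.0125), and its slope was -0.55 ± 0.08 per level (SE, adjusted p = 0.00328). Gins4 read 9.10 and 9.81 in GFP0, 10.08, 9.99 and 9.18 in GFP1, 9.61, 9.45 and 9.49 in GFP2, 9.18 and 9.05 in GFP3, and 8.53, 8.70, 8.74 and 8.42 in GFP4. Gins4 encodes another GINS subunit, and its 4 GFP4 arrays all lay below the other 10. The slope of Gins4 was -0.23 ± 0.06 per level (SE, adjusted p = 0.0475). Values of Mcm10 were 9.60 and 10.32 in GFP0, 10.14, 9.93 and 9.67 in GFP1, 9.75, 9.86 and 9.24 in GFP2, 9.57 and 9.01 in GFP3, and 9.09, 9.18, 8.44 and 8.06 in GFP4. Mcm10 helps the helicase start unwinding. Its GFP4 arrays were below both GFP0 arrays and overlapped GFP3, and its slope was -0.31 ± 0.08 per level (SE, adjusted p = 0.0402). By array, Dbf4 had 8.85 and 9.13 in GFP0, 8.96, 8.14 and 8.70 in GFP1, 8.90, 8.75 and 8.72 in GFP2, 8.35 and 7.90 in GFP3, and 7.56, 8.38, 7.60 and 8.18 in GFP4. Dbf4 is the activating partner of the CDC7 kinase. Its GFP4 arrays were below both GFP0 arrays and overlapped GFP1 and GFP3, with a slope of -0.26 ± 0.06 per level (SE, adjusted p = 0.042). Differences between GFP4 and GFP0 did not pass for Gins4 (-0.85), Mcm10 (-1.26) or Dbf4 (-1.06).

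Gins2, Gins3, Cdc7 and Cdc45 did not pass, with slopes of -0.35, -0.13, -0.10 and -0.02. Cdc45 read 8.42 and 7.71 in GFP0, 7.62, 8.18 and 8.17 in GFP1, 7.94, 7.78 and 7.81 in GFP2, 7.89 and 7.83 in GFP3, and 8.43, 7.67, 7.98 and 7.96 in GFP4. Cdc45 encodes the third partner of the active helicase besides MCM and GINS. The levels overlapped, and GFP4 replicate 1 and GFP0 replicate 1 were the highest arrays. Its slope was -0.02 ± 0.06 per level (SE, adjusted p = 0.877). Another probe set of Cdc45 was nearly as bright, with a mean of 7.87 against 7.96. It had a slope of -0.22 that did not pass either, so the slope near 0 rests on the choice of probe set.

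**Figure D4:**
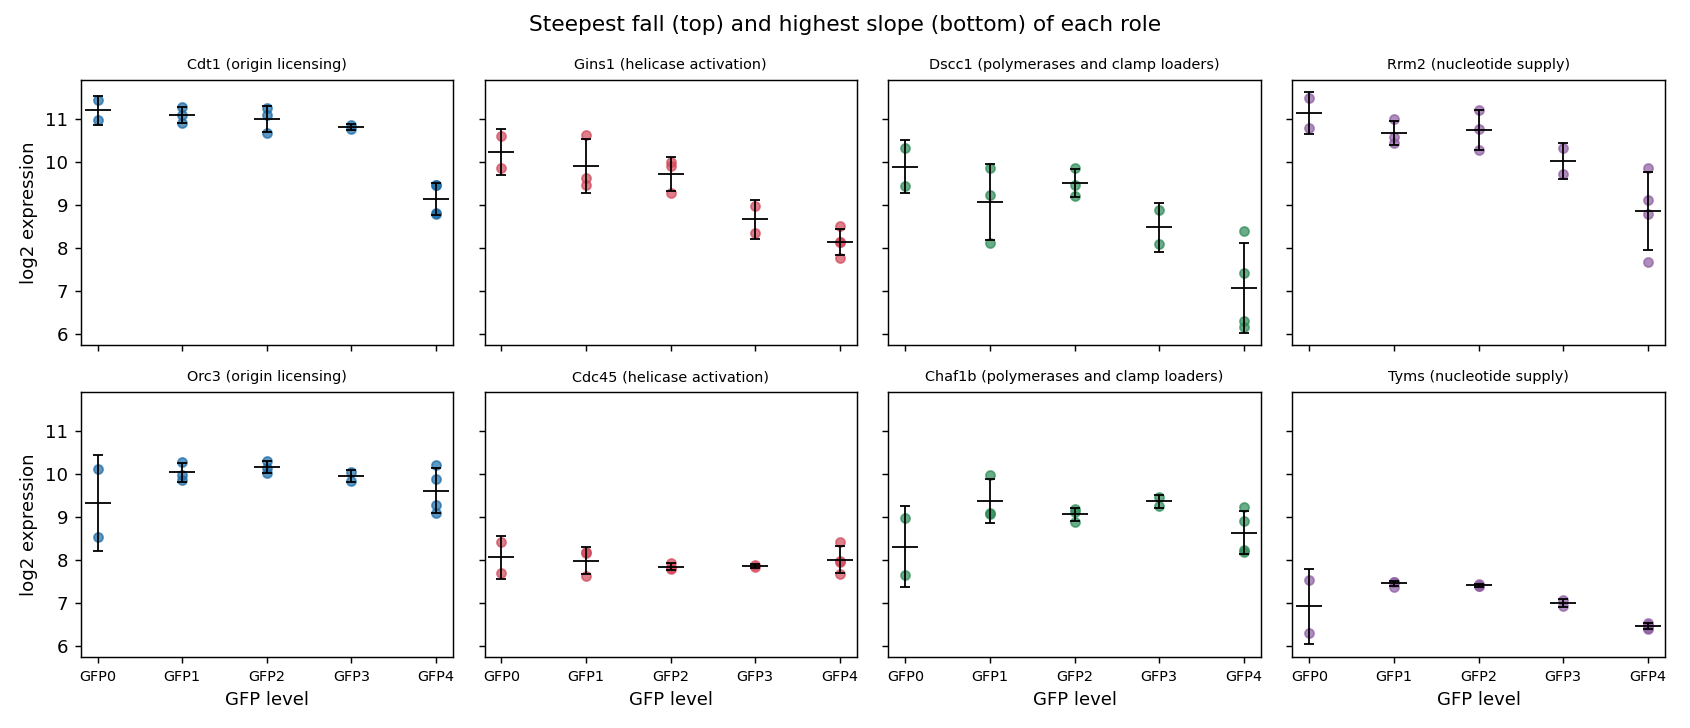
Log2 expression by array for the genes with the steepest slope of each role and for those with the highest slope, GFP0 to GFP4. Points are arrays (2, 3, 3, 2 and 4 per level) and short lines are level means with the SD; the GFP4 points of Cdt1 lie below all others, while those of Orc3 and Cdc45 overlap the other levels.

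Among polymerases and clamp loaders, 5 of 19 measured genes were lower by slope. Values of Dscc1 were 9.45 and 10.33 in GFP0, 9.87, 8.11 and 9.23 in GFP1, 9.46, 9.86 and 9.20 in GFP2, 8.89 and 8.08 in GFP3, and 6.30, 6.15, 8.39 and 7.40 in GFP4. Dscc1 belongs to an alternative clamp loader that also serves sister chromatid cohesion. GFP4 replicates 1 and 2 were the lowest of all arrays, replicate 4 also lay below every other level, and replicate 3 was above 1 array each of GFP1 and GFP3. GFP4 averaged 7.06 ± 1.05 (SD, n = 4) and GFP0 9.89 ± 0.62 (SD, n = 2), a difference of -2.83 ± 0.60 (SE, adjusted p = 0.0347), the largest of the 47 genes, at 7.12-fold. Its slope was -0.63 ± 0.13 per level (SE, adjusted p = 0.0264). By array, Rfc5 had 10.15 and 10.64 in GFP0, 11.44, 10.57 and 10.63 in GFP1, 10.96, 10.49 and 10.62 in GFP2, 10.43 and 10.05 in GFP3, and 9.36, 9.54, 9.06 and 9.33 in GFP4. Rfc5 encodes a small subunit of the PCNA loader RFC, and its 4 GFP4 arrays all lay below the other 10, while GFP1 replicate 1 was the highest. The slope of Rfc5 was -0.28 ± 0.06 per level (SE, adjusted p = 0.0264), and its difference between GFP4 and GFP0 did not pass (-1.07).

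The subunits of the primase that lays RNA primers, and of the polymerase alpha bound to it, gave 3 of these 5 genes. Prim1 read 11.61 and 12.16 in GFP0, 11.84, 12.17 and 11.37 in GFP1, 11.50, 11.79 and 11.26 in GFP2, 11.03 and 10.36 in GFP3, and 10.45, 11.43, 10.81 and 10.06 in GFP4. The GFP4 arrays of Prim1, the catalytic primase subunit, were below both GFP0 arrays and overlapped GFP1, GFP2 and GFP3. Prim1 had a slope of -0.35 ± 0.08 per level (SE, adjusted p = 0.0344). Values of Prim2 were 10.69 and 11.28 in GFP0, 11.01, 9.95 and 10.78 in GFP1, 10.78, 10.98 and 10.49 in GFP2, 10.42 and 9.68 in GFP3, and 9.98, 9.61, 9.89 and 9.62 in GFP4. For Prim2, the other primase subunit, the GFP4 arrays were below both GFP0 arrays, and 1 array each of GFP1 and GFP3 came down into their range. The slope was -0.30 ± 0.07 per level (SE, adjusted p = 0.0356). By array, Pola1 had 9.71 and 10.00 in GFP0, 9.61, 9.52 and 9.59 in GFP1, 8.82, 10.47 and 9.62 in GFP2, 9.32 and 9.19 in GFP3, and 8.30, 8.31, 8.96 and 7.95 in GFP4. Pola1 encodes the catalytic subunit of polymerase alpha. Only GFP2 replicate 1 of the other arrays fell within its GFP4 range, and its slope was -0.33 ± 0.08 per level (SE, adjusted p = 0.048). Differences between GFP4 and GFP0 did not pass for Prim1 (-1.19), Prim2 (-1.21) or Pola1 (-1.48). Pola2, the fourth subunit of this complex, had a slope of -0.05 that did not pass, and GFP0 replicate 1 was its lowest array.

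The other 14 genes of this role had slopes between -0.50 for Pole2 and 0.06 for Chaf1b. Chaf1b read 7.65 and 8.98 in GFP0, 9.09, 9.98 and 9.07 in GFP1, 8.89, 9.12 and 9.19 in GFP2, 9.27 and 9.48 in GFP3, and 8.19, 8.24, 9.23 and 8.91 in GFP4. Chaf1b encodes a subunit of the chromatin assembly factor that deposits histones on new DNA. GFP0 replicate 1 was the lowest array and GFP1 replicate 2 the highest, and GFP4 arrays overlapped GFP0, GFP1 and GFP2 and lay below both GFP3 arrays. Its slope was 0.06 ± 0.09 per level (SE, adjusted p = 0.772). Pole2 and Pcna were singled out after their values were seen. Pole2, a subunit of the leading-strand polymerase epsilon, had a GFP4 mean of 8.82 ± 1.17 (SD, n = 4) against a GFP0 mean of 10.79 ± 0.50 (SD, n = 2), and its slope missed the threshold (-0.50 ± 0.13 per level, SE, adjusted p = 0.0546). Its catalytic partner Pole had a slope of 0.02. GFP0 replicate 1 was the lowest Pole array, at 8.64 against 9.89 in replicate 2. The GFP4 mean of Pole, 9.42, lay below its means in GFP1, GFP2 and GFP3. Pcna, the sliding clamp, had a GFP4 mean of 11.54 ± 0.65 (SD, n = 4) against 13.06 ± 0.43 (SD, n = 2) in GFP0, with a slope of -0.29 ± 0.11 per level (SE, adjusted p = 0.182). Fen1, which trims Okazaki fragments, had all 4 GFP4 arrays below the other 10, and its slope of -0.16 did not pass. The other RFC genes had slopes of -0.33 for Rfc4, -0.17 for Rfc3, -0.16 for Rfc2 and -0.07 for Rfc1. Polymerase delta genes had -0.12 for Pold2 and -0.06 for Pold1, and genes of RPA, which coats single-stranded DNA, had -0.10 for Rpa2 and -0.08 for Rpa1.

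Nucleotide supply had 4 of 5 genes lower by slope. Values of Rrm2 were 10.79 and 11.49 in GFP0, 11.00, 10.45 and 10.58 in GFP1, 10.76, 11.21 and 10.27 in GFP2, 10.33 and 9.73 in GFP3, and 7.66, 9.85, 9.12 and 8.80 in GFP4. Rrm2 encodes the small subunit of ribonucleotide reductase, the enzyme that makes deoxynucleotides. Its GFP4 arrays were below both GFP0 arrays, and replicate 2 reached into the GFP3 range. GFP4 averaged 8.86 ± 0.91 (SD, n = 4) and GFP0 11.14 ± 0.50 (SD, n = 2), a difference of -2.28 ± 0.47 (SE, adjusted p = 0.032), and the slope was -0.52 ± 0.11 per level (SE, adjusted p = 0.0214). By array, Rrm1 had 10.67 and 11.57 in GFP0, 11.71, 11.28 and 11.13 in GFP1, 11.53, 11.42 and 11.17 in GFP2, 10.84 and 10.60 in GFP3, and 9.54, 10.37, 9.99 and 9.76 in GFP4. Rrm1 encodes the large subunit, and all 4 of its GFP4 arrays lay below the other 10. The slope of Rrm1 was -0.31 ± 0.06 per level (SE, adjusted p = 0.0235). Tk1 read 9.71 and 10.96 in GFP0, 11.71, 10.78 and 10.60 in GFP1, 11.01, 11.29 and 10.78 in GFP2, 10.48 and 10.05 in GFP3, and 8.54, 8.92, 9.22 and 8.16 in GFP4. Tk1 encodes the thymidine kinase of the cytoplasm, and its 4 GFP4 arrays also lay below the other 10. GFP0 replicate 1 was the lowest of the remaining arrays, and the slope was -0.40 ± 0.09 per level (SE, adjusted p = 0.0293). Differences between GFP4 and GFP0 did not pass for Rrm1 (-1.20) or Tk1 (-1.63).

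Values of Dut were 11.86 and 12.44 in GFP0, 11.95, 10.40 and 11.57 in GFP1, 11.25, 12.36 and 11.75 in GFP2, 11.43 and 11.07 in GFP3, and 10.01, 10.24, 10.66 and 9.71 in GFP4. Dut encodes the dUTPase that keeps uracil out of DNA. Its GFP4 arrays were below both GFP0 arrays and overlapped GFP1, where replicate 2 was low. GFP4 averaged 10.15 ± 0.40 (SD, n = 4) and GFP0 12.15 ± 0.41 (SD, n = 2), a difference of -1.995 ± 0.41 (SE, adjusted p = 0.032), with a slope of -0.41 ± 0.09 per level (SE, adjusted p = 0.0342). By array, Tyms had 6.30 and 7.55 in GFP0, 7.38, 7.50 and 7.48 in GFP1, 7.40, 7.45 and 7.39 in GFP2, 7.06 and 6.94 in GFP3, and 6.41, 6.40, 6.54 and 6.50 in GFP4. Tyms, thymidylate synthase, was the exception of the role. Its GFP4 arrays were below GFP1, GFP2 and GFP3, but GFP0 replicate 1 was lower still, and the slope was -0.14 ± 0.06 per level (SE, adjusted p = 0.243). Over all arrays the Tyms probe set averaged 7.02, just under the median of the table.

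Counted over genes, 26 of the 47 had every GFP4 array below both GFP0 arrays, against 7.75% of all genes. In 7 genes every GFP4 array lay below all 10 other arrays, against 0.753% of all genes: Cdt1, Mcm7, Gins4, Rfc5, Fen1, Rrm1 and Tk1. The median slope was -0.21 for licensing, -0.25 for helicase activation, -0.16 for polymerases and clamp loaders and -0.40 for nucleotide supply, and differences between roles were not tested. The median difference between GFP4 and GFP0 was -0.85 for licensing, -0.96 for helicase activation, -0.69 for polymerases and clamp loaders and -1.63 for nucleotide supply, against -0.04 for all genes.

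**Figure D5:**
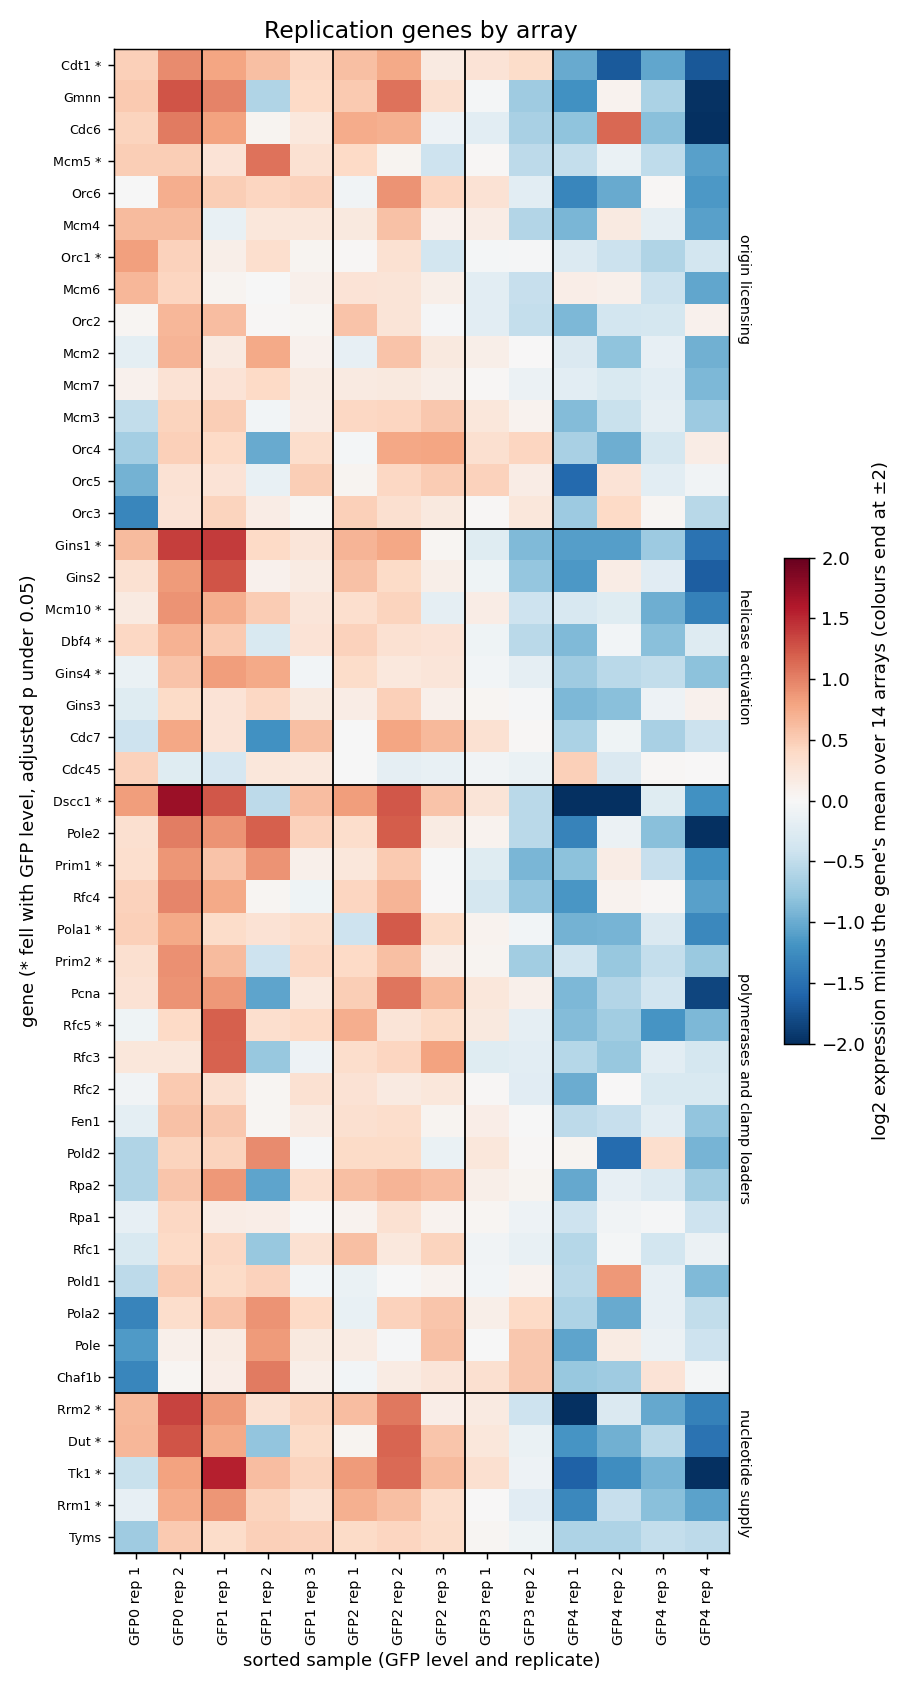
Log2 expression of the 47 genes in each of the 14 arrays, as the difference from the gene's mean over arrays, with rows grouped by role and columns from GFP0 to GFP4. The 4 GFP4 columns are mostly on the low side of the scale, and GFP0 replicate 1 differs from GFP0 replicate 2.

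Replicates of a level differed in the same direction across many of these genes. GFP0 replicate 1 was below GFP0 replicate 2 in 42 of the 47, against 46.6% of all genes, so the GFP0 level rests on 2 arrays that stand apart. GFP3 replicate 2 was below GFP3 replicate 1 in 38 of the 47, against 50.1% of all genes. Within GFP4, replicate 4 was the lowest array for 21 genes (21.9% of all genes), replicate 1 for 15 (24.5%), replicate 2 for 8 (33.2%) and replicate 3 for 3 (20.3%). The median range between arrays of a level was 0.99 in GFP4 over the 47 genes, against 0.69 over all genes.

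Measures of array quality differed between arrays as well. The median of an array lay between 6.96 and 7.18, and its interquartile range between 2.09 and 2.73, narrowest in GFP0 replicate 1 (2.09) and GFP4 replicate 1 (2.21). A larger 3 prime minus 5 prime difference of a gene means fewer complete transcripts among those labelled. The RNA was amplified, so the difference does not measure the integrity of the sample's RNA alone. For Actb it was 4.39 to 4.51 in GFP0, 2.99 to 4.72 in GFP1, 3.57 to 3.93 in GFP2, 4.01 to 4.20 in GFP3 and 3.99 to 5.05 in GFP4. For Gapdh the difference was 4.84 to 5.46 in GFP0, 5.02 to 6.52 in GFP1, 5.43 to 5.81 in GFP2, 6.10 to 6.58 in GFP3 and 5.29 to 6.57 in GFP4. With both differences as covariates 3 genes passed by slope, and 5 passed without the GFP0 and GFP4 arrays numbered 1. Correlations of arrays over genes were 0.928 to 0.990 within levels and 0.911 to 0.990 between them.

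Other probe sets of the same genes mostly had the same sign. Of the 47 genes, 37 had more than 1 probe set, with 58 further probe sets, and 53 of these had a slope below 0. In a fit of every probe set, 5 of the 58 passed as lower, 1 each of Cdt1, Mcm5, Rfc2, Rrm2 and Tyms, and 0 as higher. Those of Rrm2 and Tyms were dimmer than the table median. Of the 37 further probe sets at or over that median, 35 had a slope below 0 and 3 passed as lower. The shares over all probe sets were not counted, so these numbers have no background beside them. In that fit Mcm10, Dbf4, Mcm5, Gins4 and Pola1 missed the threshold on their brightest probe sets, at adjusted p-values between 0.0508 and 0.0603. Cdt1 was also lower on a dimmer probe set (-0.30) and had a slope of 0.02 on the dimmest. Rrm2 read from a probe set ending in _x_at, which can cross-hybridise, and had slopes of -0.41 and -0.47 on its other probe sets, of which the second passed. Mcm5, also read from an _x_at probe set, had a slope of -0.36 on a probe set without that ending, and this slope passed. Dscc1 had a slope of -0.11 on its dimmer probe set, which did not pass. The other probe set of Orc1, above the table median at 7.48, had a slope of -0.07. Its GFP4 minus GFP0 difference was -0.09, and neither passed. That of Gins1, dimmer than the table median, had a slope of -0.22 and a difference of -0.70, and neither passed. That of Dut, also dimmer than the median, had -0.05 and -0.15, and neither passed. Among the genes called lower by slope, only Cdt1, Mcm5 and Rrm2 had a further probe set that passed by slope. The slope calls of the others, Orc1, Gins1 and Dut included, each rest on 1 probe set. In all, 8 genes were read from _x_at probe sets: Mcm3, Mcm4, Mcm5, Mcm6, Pold1, Rfc2, Fen1 and Rrm2.

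A wider list of 42 replication genes had 41 measured, of which 7 were lower by slope and 1 was higher (1.07% and 2.28% of all genes), so the share higher was near that of all genes. The lowest p-values were those of Lrr1, the adaptor that helps unload the helicase at the end of replication (-0.82 ± 0.12 per level, SE, adjusted p = 0.00292), and of Traip, a ubiquitin ligase that acts on replisomes, which was the one higher (0.29 ± 0.05 per level, SE, adjusted p = 0.0138). Mcm8, a helicase of recombination repair (-0.34 ± 0.08 per level, SE, adjusted p = 0.0328), and Tipin, a fork protection factor (-0.46 ± 0.11 per level, SE, adjusted p = 0.0346), followed. In GFP4 Lrr1 averaged 6.94 ± 0.68 (SD, n = 4), against 10.31 ± 0.82 (SD, n = 2) in GFP0. Of 16 E2F and Rb factors, 1 passed as lower (1.07% of all genes), E2f8, a repressor of the family (-0.31 ± 0.08 per level, SE, adjusted p = 0.049). Of 20 genes of mitosis, 19 were measured and 0 passed by slope in limma, although all 19 slopes were below 0 with a median of -0.21 and 12 had an unadjusted p under 0.05 (7% of all genes lower). The highest level mean was that of GFP2 for 14 of these 19 and of GFP1 for the other 5. Of the 47 replication genes 19 had it in GFP0, 15 in GFP1 and 13 in GFP2, and of all 18194 genes 6581 had it in GFP0, 2517 in GFP1 and 2860 in GFP2. The difference between these lists was not tested. The mean over the mitosis genes was 9.19 ± 0.74 in GFP0 (SD, n = 2), 9.87 ± 0.42 in GFP1 (n = 3), 9.96 ± 0.17 in GFP2 (n = 3), 9.28 ± 0.09 in GFP3 (n = 2) and 8.30 ± 0.76 in GFP4 (n = 4).

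Kit, Cd34 and Ptprc passed no slope test. Of these only Kit is part of the LSK definition, so they do not check the sort itself. Their lowest arrays read 8.05 for Kit, 9.73 for Cd34 and 9.90 for Ptprc, above the table median of 7.03, and Ly6a was not analysed here. Of the genes of other blood cells, some of each list passed as lower by slope, each time a larger share than the 1.07% of all genes. Median slopes were -0.67 for neutrophils and monocytes, -0.14 for erythroblasts, -0.11 for B cells, -0.18 for T and NK cells and -0.65 for mast cells and basophils. The median of the 47 replication genes was -0.23. In the same order, 14, 6, 7, 9 and 7 slopes were below 0 (54.8% of all genes). Lower at an unadjusted p under 0.05 were 9, 5, 3, 5 and 6 (7% of all genes). The genes that passed after adjustment are named by list. They numbered 1 of 14 for neutrophils and monocytes (Ltf), 2 of 9 for erythroblasts (Klf1, Car1), 2 of 8 for B cells (Vpreb1, Ighm), 1 of 9 for T and NK cells (Nkg7) and 3 of 7 for mast cells and basophils (Cpa3, Ms4a2, Fcer1a). The neutrophil and monocyte list averaged 10.51 to 11.70 over arrays of GFP0, 8.45 to 11.50 in GFP1, 8.01 to 10.93 in GFP2, 8.09 to 8.75 in GFP3 and 8.00 to 10.38 in GFP4. The erythroblast list averaged 8.27 to 9.21 in GFP0, 7.77 to 8.98 in GFP1, 7.56 to 8.37 in GFP2, 7.64 to 7.65 in GFP3 and 7.45 to 8.07 in GFP4. The mast cell and basophil list averaged 8.60 to 9.10 in GFP0, 6.92 to 9.20 in GFP1, 6.38 to 8.32 in GFP2, 6.26 to 6.41 in GFP3 and 6.30 to 8.08 in GFP4. B cell arrays ran from 8.11 to 9.28 in GFP0, 8.26 to 8.60 in GFP1, 7.55 to 8.23 in GFP2, 7.54 in both GFP3 arrays and 7.40 to 7.92 in GFP4. T and NK cell arrays ran from 7.92 to 8.90 in GFP0, 7.74 to 7.99 in GFP1, 7.19 to 7.75 in GFP2, 7.19 to 7.47 in GFP3 and 7.07 to 7.59 in GFP4. By these means, GFP4 replicate 2 was the highest GFP4 array of each of these lists except that of T and NK cells, where replicate 3 was. The files hold no detection calls, so no marker can be called absent, and the part of such cells in the result was not tested.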

How the data were processed

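Amplified, biotin-labelled RNA of 14 sorted samples was hybridised to Affymetrix arrays, per the labels' protocols. The authors processed the arrays with GCOS, RMA and affy (no versions stated), per the submitters' processing notes. What they deposited is expression per probe set on a log2 scale, between 2.69 and 15.1 with a median of 7.03, and no detection calls come with them. RMA corrects background, normalizes quantiles and summarizes probes, which can compress differences of dim probe sets. Of 45101 probe sets, 34958 named 1 gene symbol in the platform annotation, 932 several and 9211 none. A gene was the brightest single-symbol probe set by the mean over arrays, which gave 18194 genes, and dim ones were kept. All 47 genes measured matched RefSeq (GRCm38.p6, used for names and promoters), and 0 symbols changed.

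A model of level means was fitted to the 14 arrays in limma 3.58.1 (R 4.3.3) with moderation by empirical Bayes (residual degrees of freedom 9, prior 3.99), so that levels with 2 arrays share the estimate of spread. Contrasts were the slope per level, in which each level weighs the same, GFP4 minus GFP0 and the 4 steps, and F tests covered any difference and departure from a line. Tests were two-sided, adjusted by Benjamini-Hochberg over all genes, with a threshold of 0.05. Fits were tested on simulated data. The genes and lists were chosen with earlier results of these data known, so no list was tested as a set. Values by array are given for every gene past the slope or GFP4 minus GFP0 test and for the steepest and the highest slope of each role, and up to 4 genes of other lists by p. Figures were drawn with matplotlib 3.10.9. The number of arrays limits precision. Alternatives were other scalings, probe-set summaries, variance models, weights, a block on replicate number, leaving out each array and, chosen after seeing the data, leaving out arrays of narrow spread or adding covariates.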

Additional observations from a re-analysis of the deposited data

Results flagged for a closer look

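Mcm7, a subunit of the MCM ring, read 12.45 in GFP4 replicate 4, while the other GFP4 arrays read 13.14, 13.05 and 13.14. It is listed because its gap to the nearest other GFP4 array took up so much of the whole range of that level that only 5% of groups of 4 do so by chance. GFP4 was the only level with enough arrays for this, and 1 of 47 genes passed it, which is below the number that chance gives at that rate. The slope of Mcm7 was -0.15 and had not passed.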

How the results depend on the processing

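No result reversed in any alternative, and all 16 slopes and all 6 differences between GFP4 and GFP0 kept a sign below 0. The count of genes lower by slope, 16 as reported, stayed within 1.5 times in 12 of 26 alternatives. It was 6 with arrays centred on their medians and 1 with array quality weights, and it ran from 2 to 20 with each array left out. Chosen after seeing the data, it was 5 without the GFP0 and GFP4 arrays numbered 1, 8 also without GFP4 replicate 2, 3 with covariates for the 3 prime to 5 prime differences and 10 with one for the interquartile range. The count lower in GFP4 against GFP0, 6 as reported, was 3 centred, 11 after cyclic loess, 0 with array quality weights, 2 with the GFP4 and GFP0 arrays alone and 2 to 14 with each array left out. In the added alternatives it was 2 without the arrays numbered 1 and 3 with the 3 prime to 5 prime differences. The count with any difference between levels, 5 as reported, was 1 centred, 3 with the mean over probe sets, 9 with array quality weights and 1 to 6 with each array left out. In the added alternatives it was 2 without the arrays numbered 1, 1 also without GFP4 replicate 2, 0 with the 3 prime to 5 prime differences and 1 with the interquartile range. With array quality weights 1 gene passed at a step, where none did otherwise. The share of all genes passing in each alternative was not counted, and the cause of these moves was not tested. The weights ran from 0.302 for GFP4 replicate 1 to 4.46 for GFP2 replicate 2.

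The median slope of helicase activation was -0.13 with the mean over probe sets and -0.18 with the 3 prime to 5 prime differences. That of nucleotide supply was -0.23 with the mean over probe sets and ran from -0.46 to -0.28 with each array left out. That of polymerases and clamp loaders ran from -0.23 to -0.10 with each array left out, was -0.23 without the arrays numbered 1 and -0.23 also without GFP4 replicate 2. None of the 47 genes was higher by slope or in GFP4 against GFP0, and none departed from a line, in any alternative. The median slope of all genes was -0.01 as reported and -0.0013 with arrays centred.

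With the replicate number as a block, 4 genes were lower by slope, 1 in GFP4 against GFP0 and 1 showed any difference. Deviations of same-numbered arrays correlated between -0.26 and 0.58 in 23 pairs, 9 of them over 0.1. Of 13 arrays, 6 correlated best with an array of their own number. In a level of 2 arrays the deviations mirror each other, and the labels do not say whether same-numbered samples share animals. Whether the numbers pair the samples therefore cannot be told from these values. The values carry no depth and no detection calls, and GFP0 and GFP3 rest on 2 arrays each.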
